A study of Mus musculus with 6 samples.

Results

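The genes described here encode the factors that start, extend and end protein synthesis in the mouse. They were chosen by name, as the gene symbols beginning with Eif1 to Eif6, Eef1 or Eef2, together with the release factors Etf1, Gspt1 and Gspt2. Eif2ak2 was left out, and a gene needed at least 10 counts in at least 3 libraries. Of 55487 rows in each file, 87 carried such a name and 77 reached the count minimum, against 18376 rows of any name. Just inside that minimum was the pseudogene row Eif3s6-ps2, with 10, 6 and 7 counts in controls and 7, 12 and 13 in mutants. Just outside it were Eif3s6-ps1, with 14, 8 and 5 counts in controls and 2, 3 and 2 in mutants, and Eif1-ps3, with 3, 6 and 1 in controls and 5, 15 and 6 in mutants.

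Messenger RNA was measured by bulk RNA-seq in crypt cells isolated from the colon of C57BL/6 mice aged 4 weeks. Controls (control 1 to 3) were M14(f/f), with both M14 alleles flanked for removal by Cre. Mutants (mutant 1 to 3) were M14(f/f);Villin-Cre, which adds a Cre recombinase driven by the promoter of Villin, a gene of the gut epithelium. M14 is read here as Mettl14, a subunit of the enzyme that writes N6-methyladenosine (m6A) on RNA. No control carried Cre, so an effect of Cre itself and of the removed gene cannot be told apart, and the p-values below measure the spread between these 6 libraries.

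In protein synthesis, eIF4E binds the cap of a messenger RNA and joins the scaffold eIF4G and the helicase eIF4A, while 4E-binding proteins occupy eIF4E and block this step. The factor eIF2 brings the initiator transfer RNA to the small ribosomal subunit together with eIF1, eIF1A and eIF3, and eIF2B recharges eIF2 with GTP until a stress kinase phosphorylates eIF2. Elongation then runs on eEF1A, which delivers transfer RNAs, and on eEF2, which moves the ribosome forward, and eRF1 and eRF3 end the chain. The files hold transcript counts only, so neither protein, phosphorylation, m6A nor translation was measured.

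Depth was 34978529, 35183636 and 32165546 counts in control 1 to 3, and 26188638, 24181631 and 34842591 in mutant 1 to 3. A floor of 3 counts corresponds to 0.0820 to 0.120 CPM (counts as a share of the library, scaled to a fixed total), which covers counting error only. Ribosomal RNA (row CT010467.1) made up 7.76% to 8.90% of each control library and 5.16% to 12.9% of each mutant library, and mitochondrially encoded genes took 7.91% to 9.19% and 10.9% to 11.8%. Mettl14 had 23.0 ± 2.78 CPM in controls and 12.8 ± 1.96 CPM in mutants (edgeR log2 fold change -0.85, adjusted p = 6.22e-04), so every mutant lay below every control. Sex-linked transcripts set mutant 1 and mutant 2 apart. Xist, the RNA that coats an inactive X chromosome, had 652 CPM in mutant 1 and 53.1 CPM in mutant 2, against 1.28 to 1.77 CPM in the controls and mutant 3. The Y-linked gene Ddx3y had 0.541 CPM in mutant 1, 38.0 CPM in mutant 2 and 44.2 CPM in mutant 3, against 53.6 to 58.4 CPM in controls. Mutant 1 thus had high Xist with little Ddx3y, mutant 2 had both, and the controls and mutant 3 had Ddx3y with little Xist. The labels give no sex, so these transcripts are not balanced between the groups, and the part of sex in the results was not tested. The count of calls is therefore also given without mutant 1 and mutant 2.

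Markers of other cell types moved with genotype. Of 14 macrophage and dendritic cell markers, 13 were higher and C1qa was lower in mutants, and their summed level was 37.2 to 47.0 CPM in controls and 81.8 to 110 CPM in mutants. Of 10 colon epithelium markers, 6 were lower and 1 was higher, with sums of 26126 to 30552 CPM in controls and 15443 to 16660 CPM in mutants. Much of these sums came from Muc2 (means of 14083 CPM in controls and 6296 CPM in mutants) and Car1 (5613 and 2076 CPM). The marker that rose was Cdh1, and Cdx1, Cdx2 and Krt18 did not pass. Of 10 fibroblast and smooth muscle markers, 7 were lower, with sums of 287 to 328 CPM and 153 to 178 CPM. Cycling cell markers (7 of 12 higher, 1 lower) summed to 1223 to 1425 CPM and 1486 to 1691 CPM. Of 5 neutrophil markers, 4 were higher, with sums of 9.04 to 13.06 CPM and 13.03 to 39.7 CPM. Of 5 endothelial markers, 2 were higher and 1 lower, with sums of 11.7 to 12.97 CPM and 19.8 to 22.3 CPM. Of 10 tested T and NK cell markers, 2 were higher, with sums of 12.4 to 18.5 CPM and 16.2 to 24.5 CPM, and the 1 tested B and plasma cell marker did not pass (sums 0.710 to 1.22 CPM and 1.16 to 2.04 CPM). No marker of these lists was at 0 in all controls. The part of these markers in the results below was not tested, and in bulk RNA fewer cells of a type and less RNA per cell cannot be told apart.

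The factors changed in both directions. Of 76 tested members, 16 were higher in mutants, 14 were lower and 46 did not pass an adjusted p of 0.05 in edgeR's quasi-likelihood test with Benjamini-Hochberg adjustment. That is 39.5% of the members, beside 46.3% of all 18539 tested genes. By direction the members had 21.1% higher and 18.4% lower, beside 23.5% and 22.8% of all genes. The median log2 fold change (mutant minus control) was 0.07 over the members and 0.01 over all genes, and the members ran from -1.29 to 1.88. More than 2-fold rises were seen in 5 members and a more than 2-fold fall in 1, where all genes had 10.5% and 6.05%. In 47 members, including all 30 that passed, the control and mutant CPM ranges were separate (26 higher and 21 lower), beside 56.9% of all genes (28.7% higher and 28.2% lower).

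Of 4 other scalings, 3 left the split between higher and lower members nearly as it was: 16 and 14 with DESeq2 size factors, 15 and 14 with upper quartile scaling, and 16 and 14 with TMM without ribosomal and mitochondrial RNA. With library totals in place of TMM scaling, 19 members were higher and 9 lower. All genes shifted the same way there, with 4881 higher and 3389 lower (59.0% of calls higher, beside 50.7% with TMM), and their median log2 fold change was 0.08. Leaving out mutant 1 and mutant 2 leaves mutant 3 as the only mutant library, so the fit takes the spread from the controls and assumes that the lone mutant varies as they do. In that fit 13 members were higher and 10 lower, and 21 of the 30 calls were shared. The 9 calls lost there were those of Eif2s2, Eif3c, Eif3e, Eif3k, Eif4e, Eif4g2, Eif4h, Eef1akmt3 and Eef1akmt4, and 2 calls were gained, of Eif2b5 and Eif1-ps2. These gains and losses rest on 1 mutant library and do not show which calls hold, and 33.2% of all genes passed. Without control 3, 13 were higher and 9 lower. Among the 63 members with a group mean of at least 10 CPM, 14 were higher and 13 lower (42.9%), where 57.8% of all 9648 such genes passed. The plot of log2 fold changes by role shows every member that is not a pseudogene.

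**Figure D1:**
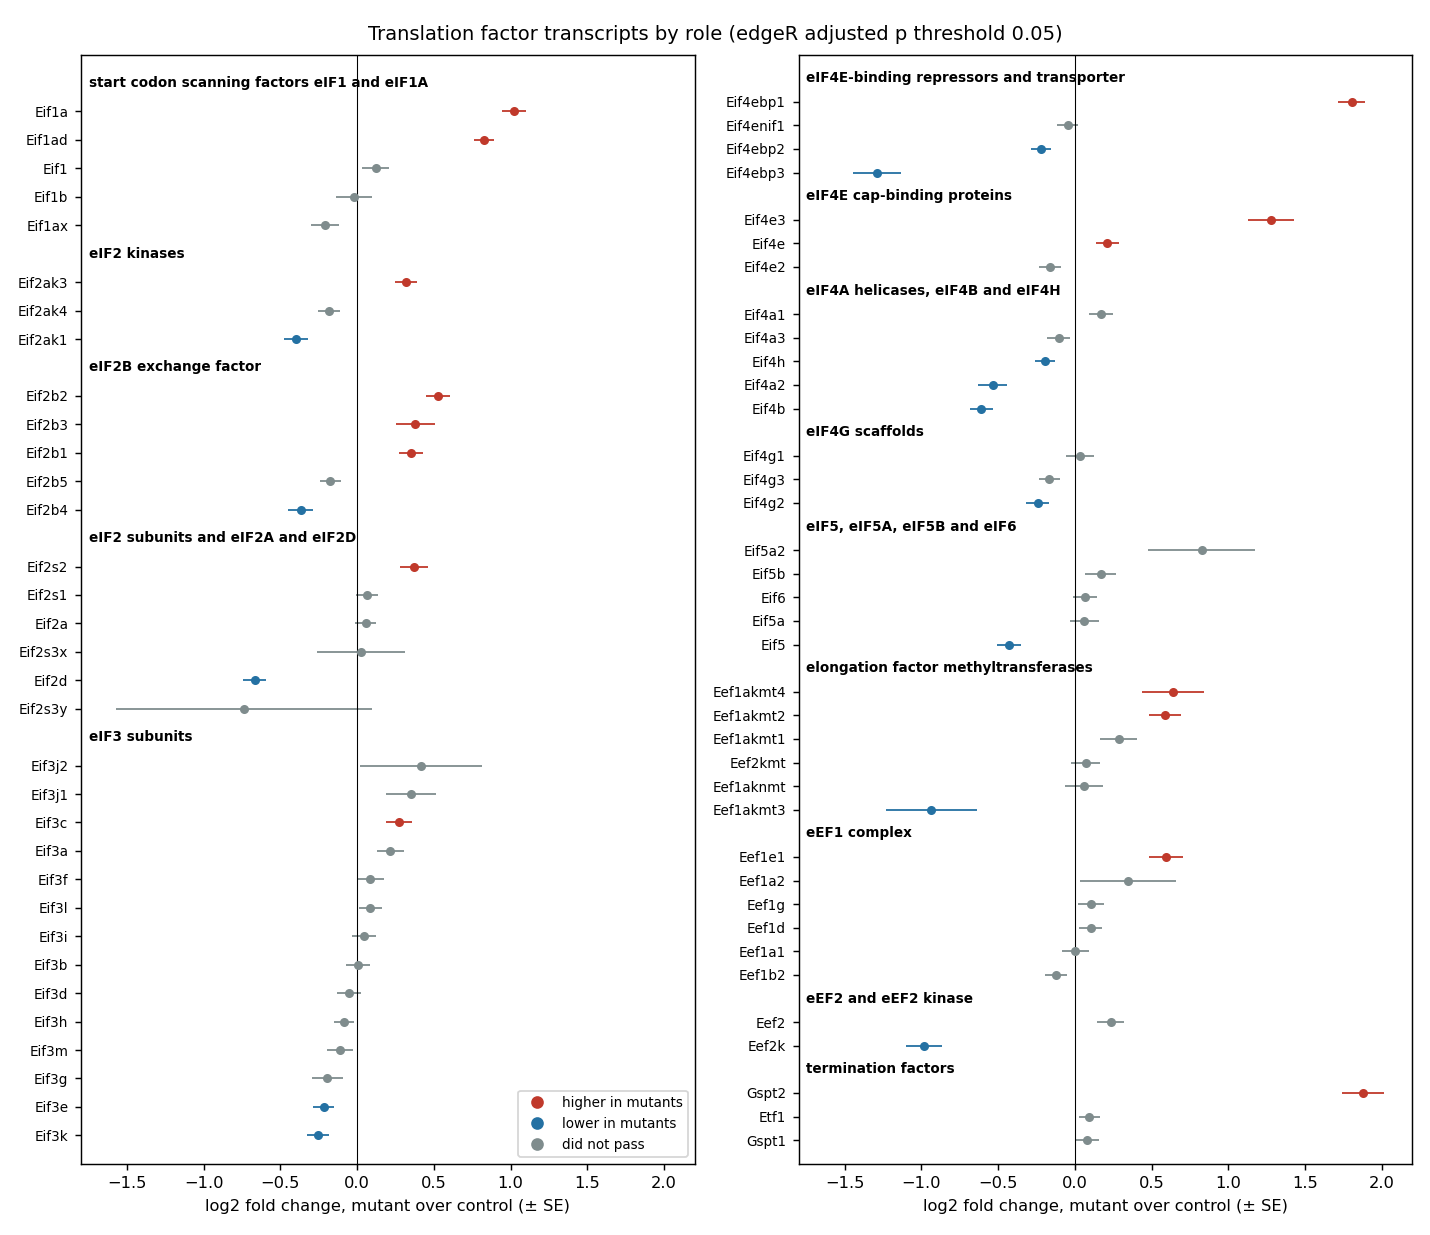
Log2 fold change (mutant minus control, x axis) of the 70 tested members not named as pseudogenes, grouped by role (y axis), with bars of 1 standard error and colours for members called higher, lower or not passed. The 4E-binding proteins hold both a strong rise (Eif4ebp1, 1.80) and the largest fall (Eif4ebp3, -1.29), and the eIF3 subunits other than Eif3j1 and Eif3j2 lie between -0.25 and 0.27.

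The 4E-binding proteins, repressors of cap-dependent initiation, held both one of the largest rises and the largest fall among the members. Eif4ebp1 (ENSMUSG00000031490.6, chromosome 8, 27260329 to 27276674, plus strand, GRCm38) had 12.2, 11.3 and 12.7 CPM in controls and 39.5, 40.7 and 46.1 CPM in mutants. Every mutant was more than 3 times the control mean of 12.1 CPM, and it rose (log2 fold change 1.80, SE 0.09, adjusted p = 6.20e-07). Its paralog Eif4ebp3 fell, with 19.8, 13.6 and 16.8 CPM in controls and 6.22, 7.84 and 6.54 CPM in mutants (log2 fold change -1.29, SE 0.16, adjusted p = 1.39e-04), and the groups did not overlap. Of the exon length of Eif4ebp3, 67.3% lies on exons of the annotated read-through gene Maskbp3 on the same strand. Reads on both genes are not counted, so its level is uncertain. Eif4ebp2, the most abundant of the 3 per kilobase by its control mean, fell slightly, with 149.6, 153 and 149 CPM in controls and 132, 131 and 124 CPM in mutants (log2 fold change -0.22, SE 0.07, adjusted p = 0.0207), and passed neither without control 2, control 3 or mutant 3 (log2 fold change -0.24 to -0.19) nor under library totals (-0.15). Eif4enif1, which encodes the eIF4E transporter 4E-T, had 70.5, 68.6 and 71.7 CPM in controls and 70.3, 63.9 and 70.0 CPM in mutants and did not pass (log2 fold change -0.05, adjusted p = 0.615).

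Set against Eif4ebp2 per kilobase of exon, the level of Eif4ebp1 was 21.4%, 19.6% and 22.4% in controls and 78.7%, 81.6% and 97.9% in mutants. The level of Eif4ebp3 on the same scale was 103%, 69.1% and 87.4% in controls and 36.6%, 46.4% and 41.0% in mutants. Eif4ebp1 was thus nearer to Eif4ebp2 in every mutant than in any control, and Eif4ebp3 was further from it than in any control.

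Because the deleted gene belongs to the m6A writer, the core GGACT of its target motif was searched in the longest protein-coding transcript of each gene (GENCODE vM21, GRCm38). The Eif4ebp1 transcript of 1997 bases held 2 matches, 1 in the coding part at bases 173 to 177 and 1 in the 3′ UTR at bases 695 to 699. The windows are shown because Eif4ebp1 rose with the smallest adjusted p of all members, with GGACT in capitals.
Eif4ebp1 coding site: tcccgcccggGGACTacagcaccac
Eif4ebp1 3′ UTR site: tccagcgagtGGACTcagaggagtc

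Of the 3 cap-binding protein genes, 2 rose and none fell. Eif4e3, a diverged cap-binding protein, had 4.65, 4.66 and 4.90 CPM in controls and 13.8, 10.01 and 10.8 CPM in mutants and rose (log2 fold change 1.28, SE 0.15, adjusted p = 1.11e-04), with no overlap between groups. Of its exon length, 14.8% is shared with another same-strand gene. Eif4e, the main cap-binding protein, had 21.1, 22.7 and 22.5 CPM in controls and 26.6, 25.1 and 25.1 CPM in mutants. Its rise was small (log2 fold change 0.21, SE 0.08, adjusted p = 0.0417), and leaving out any 1 library ended the call, with log2 fold changes of 0.17 to 0.23. Eif4e2, which encodes the 4EHP repressor of initiation, had 137, 122 and 134 CPM in controls and 118, 119 and 114 CPM in mutants and did not pass (log2 fold change -0.16, SE 0.07, adjusted p = 0.0899), although the groups did not overlap, and it passed without control 2 (-0.22). Per kilobase, Eif4e3 stood at 52.5%, 49.1% and 52.2% of Eif4e in controls and at 124%, 95.1% and 103% in mutants.

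The promoter of Eif4e at 1 of its annotated starts, from 250 bases before to 50 after it, was taken from RefSeq (GRCm38.p6, chr3:138527018-138527317, plus strand). It is shown because it carries CACGTG, the E-box bound by Myc and Usf proteins, at 2 places that begin at -228 and -64 from the start. E-boxes are in capitals.
Eif4e: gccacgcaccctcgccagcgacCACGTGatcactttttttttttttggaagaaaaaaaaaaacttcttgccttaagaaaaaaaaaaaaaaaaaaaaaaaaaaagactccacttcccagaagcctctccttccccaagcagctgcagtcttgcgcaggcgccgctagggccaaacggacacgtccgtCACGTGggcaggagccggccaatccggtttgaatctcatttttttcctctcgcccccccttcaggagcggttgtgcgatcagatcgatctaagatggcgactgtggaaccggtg

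Of the 5 genes for eIF4A helicases, eIF4B and eIF4H, 3 fell and none rose. Eif4b, whose product stimulates the eIF4A helicase, had 358, 340.2 and 361 CPM in controls and 238, 239 and 217 CPM in mutants and fell (log2 fold change -0.61, SE 0.08, adjusted p = 1.51e-04). Eif4a2, the helicase paralog, had 179.8, 174 and 186 CPM in controls and 107, 134 and 132 CPM in mutants and fell (log2 fold change -0.53, SE 0.09, adjusted p = 0.00129). In both genes all mutants lay below all controls. Eif4h, a second helper of eIF4A, had 231, 224 and 218 CPM in controls and 193, 198 and 196 CPM in mutants (log2 fold change -0.19, SE 0.07, adjusted p = 0.0373). Its fall was small, and it was not called without control 1, control 2, control 3, mutant 2 or mutant 3 (log2 fold change -0.23 to -0.18) or under library totals (-0.12).

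The main helicase Eif4a1 had 35.4, 31.6 and 34.0 CPM in controls and 40.1, 38.0 and 35.8 CPM in mutants and did not pass (log2 fold change 0.17, SE 0.08, adjusted p = 0.0947), although the groups did not overlap. It shares 65.3% of its 50-base stretches with other annotated genes, so reads on them are lost and its level is uncertain. Under library totals it passed with 0.24. Per kilobase, Eif4a2 stood at 412%, 447% and 445% of Eif4a1 in controls and at 216%, 287% and 300% in mutants. Eif4a3, a part of the exon junction complex, also did not pass (log2 fold change -0.10).

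Of the 3 eIF4G scaffolds, Eif4g2 fell and the others did not pass. Eif4g2, which encodes a scaffold without the eIF4E-binding site, had 852, 843 and 824 CPM in controls and 723, 702 and 705 CPM in mutants (log2 fold change -0.24, SE 0.07, adjusted p = 0.0233). That call was lost without control 2, control 3, mutant 2 or mutant 3 (-0.27 to -0.23) and under library totals (-0.17). Eif4g1, the most abundant scaffold per kilobase in controls, had 702, 714 and 685 CPM in controls and 795, 679 and 678 CPM in mutants (log2 fold change 0.03, SE 0.09, adjusted p = 0.776), and the ranges overlapped. Eif4g3 had a log2 fold change of -0.17 (adjusted p = 0.0677).

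**Figure D2:**
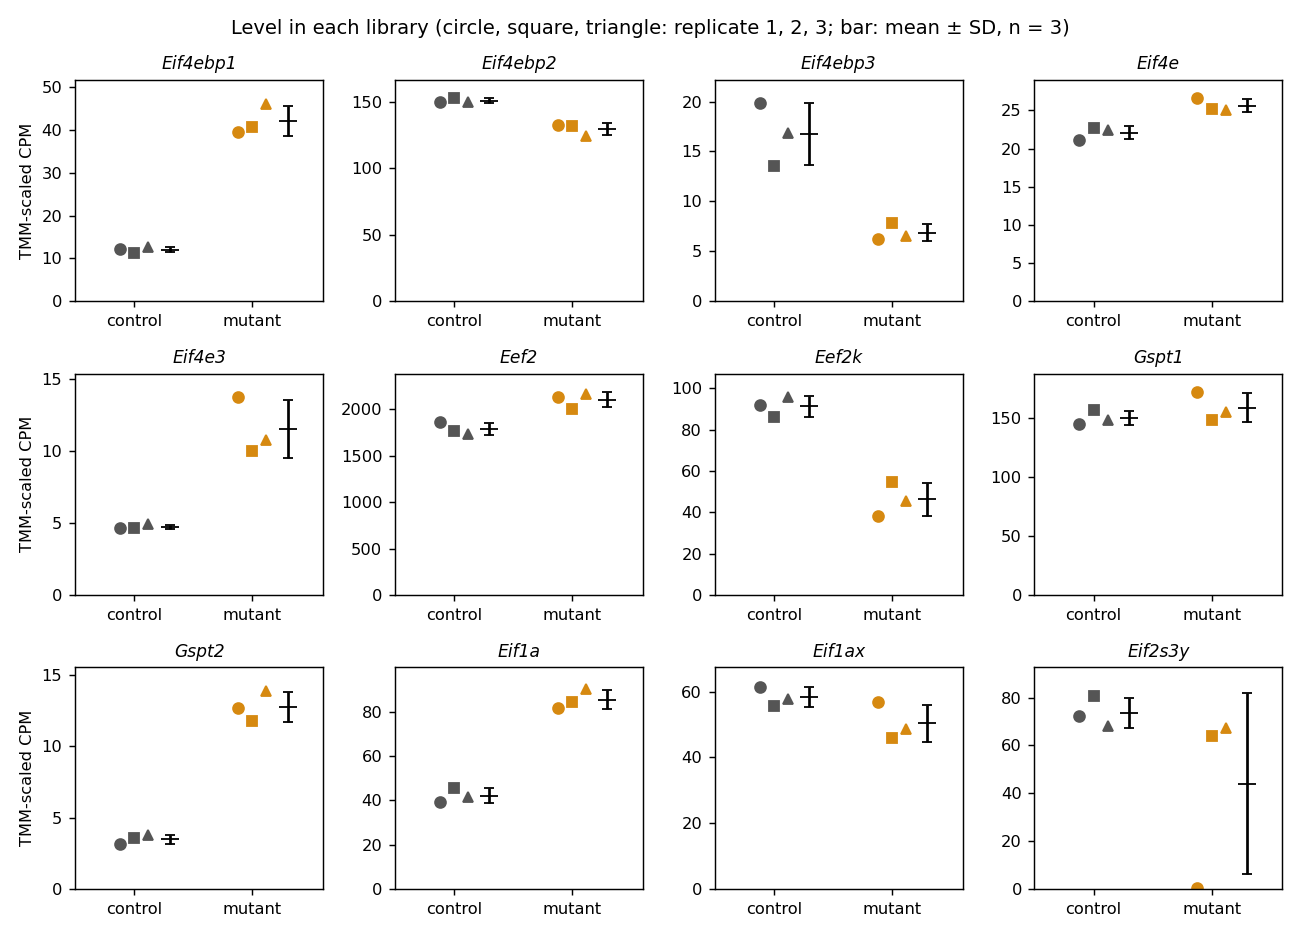
TMM-scaled CPM (y axis, linear from 0) in each control and mutant library for 12 members, with a circle, square or triangle for replicate 1, 2 or 3 and bars for the mean and SD of 3 libraries. Eif4ebp1, Eif4e3, Gspt2 and Eif1a lie higher in every mutant, Eif4ebp3 and Eef2k lie lower, and Eif2s3y is near 0 in mutant 1.

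Of the 5 genes grouped as eIF1 and eIF1A, which include the eIF1A-like gene Eif1ad, 2 rose and none fell. Eif1a, an autosomal eIF1A gene, had 39.0, 45.7 and 41.5 CPM in controls and 81.8, 84.3 and 90.0 CPM in mutants (log2 fold change 1.02, SE 0.08, adjusted p = 9.85e-06). Eif1ad (ENSMUSG00000024841.8, chromosome 19, 5366741 to 5371526, plus strand), whose product carries the eIF1A fold, had 33.5, 32.6 and 33.0 CPM in controls and 57.8, 57.0 and 60.7 CPM in mutants (log2 fold change 0.82, SE 0.06, adjusted p = 1.04e-05). Mutants of both genes lay far above the controls. The X-linked copy Eif1ax had 61.6, 55.6 and 57.9 CPM in controls and 56.7, 45.8 and 48.8 CPM in mutants and did not pass (log2 fold change -0.21, SE 0.09, adjusted p = 0.0796), but fell without mutant 1 (log2 fold change -0.31). Per kilobase, Eif1a stood at 80.0%, 104% and 90.4% of Eif1ax in controls and at 182%, 232% and 233% in mutants. Eif1, the most abundant of these genes per kilobase in controls but not in mutants, had 35.8, 30.9 and 30.1 CPM in controls and 32.7, 36.3 and 36.3 CPM in mutants (log2 fold change 0.12, SE 0.09, adjusted p = 0.287), and the ranges overlapped. Eif1b did not pass either (log2 fold change -0.02).

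The kinases that phosphorylate eIF2 moved apart. Eif2ak3, which encodes PERK, the sensor in the endoplasmic reticulum, had 90.0, 96.1 and 93.7 CPM in controls and 117, 109 and 122 CPM in mutants and rose (log2 fold change 0.32, SE 0.07, adjusted p = 0.00511). Eif2ak1, which encodes the haem-regulated kinase HRI, had 94.1, 82.2 and 89.5 CPM in controls and 68.8, 62.6 and 70.1 CPM in mutants and fell (log2 fold change -0.40, SE 0.08, adjusted p = 0.00241). Neither gene's groups overlapped. Eif2ak4, which encodes the amino acid sensor GCN2, had 45.4, 47.3 and 42.4 CPM in controls and 41.4, 37.5 and 40.0 CPM in mutants and did not pass (log2 fold change -0.18, SE 0.07, adjusted p = 0.0655), but passed without mutant 1 (-0.23).

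Of the 5 subunits of eIF2B, the exchange factor of eIF2, 3 rose and 1 fell. Eif2b2 (ENSMUSG00000004788.11, chromosome 12, 85219481 to 85226628, plus strand) had 29.5, 26.2 and 25.8 CPM in controls and 38.5, 38.5 and 40.5 CPM in mutants (log2 fold change 0.53, SE 0.08, adjusted p = 4.53e-04). Eif2b1 had 67.1, 67.0 and 57.9 CPM in controls and 83.2, 76.7 and 85.0 CPM in mutants (log2 fold change 0.35, SE 0.08, adjusted p = 0.00588). Both rose in every mutant. Eif2b3 had 9.64, 8.04 and 9.81 CPM in controls and 11.1, 11.2 and 13.5 CPM in mutants (log2 fold change 0.38, SE 0.13, adjusted p = 0.0363), a rise that was not called without control 1, control 2, control 3 or mutant 3 (0.28 to 0.41). Eif2b4 (ENSMUSG00000029145.12, chromosome 5, 31187558 to 31193430, minus strand) fell, with 38.8, 33.8 and 38.4 CPM in controls and 30.4, 27.9 and 27.9 CPM in mutants (log2 fold change -0.37, SE 0.08, adjusted p = 0.00478), and no control overlapped a mutant. Eif2b5, the catalytic subunit, had a log2 fold change of -0.17 (adjusted p = 0.0604) and passed without mutant 1 (-0.21).

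The promoters of Eif2b2 (chr12:85219231-85219530, plus strand) and Eif2b4 (chr5:31193090-31193389, minus strand) are shown because the subunits moved in opposite directions while both windows hold CCGGAAG, the core bound by Ets-family proteins, within the first 50 bases after the start. The match begins at +17 in Eif2b2 and at +2 in Eif2b4, and is in capitals (RefSeq, GRCm38.p6). The part of this motif in either change was not tested.
Eif2b2: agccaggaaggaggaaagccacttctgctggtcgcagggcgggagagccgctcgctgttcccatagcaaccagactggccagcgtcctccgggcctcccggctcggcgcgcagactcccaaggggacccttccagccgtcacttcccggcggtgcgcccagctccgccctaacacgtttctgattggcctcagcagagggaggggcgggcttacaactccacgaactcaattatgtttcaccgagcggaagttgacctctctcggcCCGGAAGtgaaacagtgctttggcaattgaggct
Eif2b4: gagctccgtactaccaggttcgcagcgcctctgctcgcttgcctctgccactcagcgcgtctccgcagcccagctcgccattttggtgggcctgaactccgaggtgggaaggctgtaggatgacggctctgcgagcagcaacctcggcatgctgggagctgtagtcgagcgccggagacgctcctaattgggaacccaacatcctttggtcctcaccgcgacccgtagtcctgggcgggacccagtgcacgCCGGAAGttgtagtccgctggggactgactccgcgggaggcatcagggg

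Of eIF2 itself, only the beta subunit gene passed. Eif2s2 had 110.4, 117 and 135 CPM in controls and 147, 166 and 156 CPM in mutants and rose (log2 fold change 0.37, SE 0.09, adjusted p = 0.00795). It shares 27.8% of its 50-base stretches with other genes. Eif2s1, the alpha subunit that the kinases phosphorylate, had a log2 fold change of 0.07 (adjusted p = 0.497). Eif2d, which encodes a factor that delivers transfer RNA without eIF2, had 32.8, 32.0 and 32.2 CPM in controls and 21.4, 20.2 and 19.5 CPM in mutants and fell in every mutant (log2 fold change -0.67, SE 0.07, adjusted p = 7.33e-05). Eif2a, another alternative factor, did not pass (log2 fold change 0.06).

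The gamma subunit is encoded by an X-linked and a Y-linked gene. Eif2s3y had 72.4, 80.6 and 68.0 CPM in controls and 0.502, 64.1 and 67.5 CPM in mutants, which was near the floor in mutant 1 only (log2 fold change -0.74, SE 0.84, adjusted p = 0.503), and without mutant 1 its log2 fold change was -0.17. Without a filter on low counts Eif2s3y was called, with -0.77. Eif2s3x had 5.31, 4.16 and 5.03 CPM in controls and 7.499, 4.12 and 3.23 CPM in mutants (log2 fold change 0.03, SE 0.28, adjusted p = 0.952), with its highest value in mutant 1, and 36.2% of its 50-base stretches also lie in another gene.

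Of the 14 genes of eIF3, the large complex that binds the small ribosomal subunit, 1 rose, 2 fell and 11 did not pass. Without the near-identical copies Eif3j1 and Eif3j2, the log2 fold changes of the other 12 ran from -0.25 to 0.27. Eif3c, the most abundant subunit gene per kilobase in controls, had 533, 546 and 544 CPM in controls and 717, 607 and 640.1 CPM in mutants (log2 fold change 0.27, SE 0.09, adjusted p = 0.0243), and the call was lost without control 1, control 2, control 3 or mutant 1 (0.19 to 0.27). Eif3k had 111, 108 and 99.1 CPM in controls and 85.3, 90.6 and 91.5 CPM in mutants (log2 fold change -0.25, SE 0.07, adjusted p = 0.0172), and Eif3e had 102, 99.3 and 99.1 CPM in controls and 85.8, 82.0 and 90.3 CPM in mutants (log2 fold change -0.22, SE 0.07, adjusted p = 0.0238). These falls were small, and under library totals neither was called (-0.18 and -0.15). Eif3e was also lost without control 1, control 3 or mutant 2 (-0.24 to -0.19). Eif3a, the scaffold of the complex, did not pass (log2 fold change 0.22, SE 0.09, adjusted p = 0.0732). Eif3g passed without control 2 (-0.29).

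Of the 5 later initiation factor genes, 1 fell and none rose. Eif5, which makes eIF2 hydrolyse GTP at the start codon, had 217, 209 and 229.8 CPM in controls and 172, 165 and 151 CPM in mutants and fell in every mutant (log2 fold change -0.43, SE 0.08, adjusted p = 0.00155). Eif5a, the hypusine-carrying factor that helps peptide bond formation, was the most abundant of these genes per kilobase in controls. It had 205, 185 and 225 CPM in controls and 229.8, 219 and 195 CPM in mutants (log2 fold change 0.06, SE 0.09, adjusted p = 0.619), and the ranges overlapped. The subunit-joining factor Eif5b and the subunit-release factor Eif6 did not pass either (log2 fold changes 0.17 and 0.07). Eif5a2, a copy at 0.103 CPM per kilobase in controls, the lowest of the members, had a log2 fold change of 0.83 (adjusted p = 0.0797) and passed without control 3 (1.15).

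In elongation, the kinase gene of eEF2 fell and Eef2 did not pass. Eef2k (ENSMUSG00000035064.17, chromosome 7, 120842831 to 120907450, plus strand) encodes the kinase that phosphorylates eEF2 and slows elongation. It had 92.0, 86.1 and 96.0 CPM in controls and 38.5, 54.7 and 45.6 CPM in mutants and fell (log2 fold change -0.98, SE 0.12, adjusted p = 1.16e-04), with the highest mutant well below the lowest control. Eef2 had 1858, 1766 and 1735 CPM in controls and 2134, 2006 and 2160.4 CPM in mutants. All mutants lay above all controls, but Eef2 did not pass (log2 fold change 0.23, SE 0.09, adjusted p = 0.0514). It was called under library totals (0.30), a filter at a mean of 1 CPM, DESeq2 and limma-voom. Eef2 was the most abundant member per kilobase in controls, with 537 ± 19.1 CPM per kilobase (SD, n = 3). Per kilobase, Eef2k stood at 2.22%, 2.19% and 2.48% of Eef2 in controls and at 0.809%, 1.22% and 0.948% in mutants.

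The promoter of Eef2k at 1 of its annotated starts (RefSeq, GRCm38.p6, chr7:120842581-120842880, plus strand) is shown because, like that of Eif4e, it holds CACGTG, here beginning at -31. Eef2k fell, while the small rise of Eif4e was not called once any 1 library was left out. The part of this motif in either change was not tested. The E-box is in capitals.
Eef2k: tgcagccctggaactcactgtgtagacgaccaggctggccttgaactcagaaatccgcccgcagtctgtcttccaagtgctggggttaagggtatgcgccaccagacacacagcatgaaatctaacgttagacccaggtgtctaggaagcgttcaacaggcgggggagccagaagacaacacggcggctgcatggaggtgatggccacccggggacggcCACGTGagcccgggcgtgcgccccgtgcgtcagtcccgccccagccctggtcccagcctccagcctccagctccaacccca

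**Figure D3:**
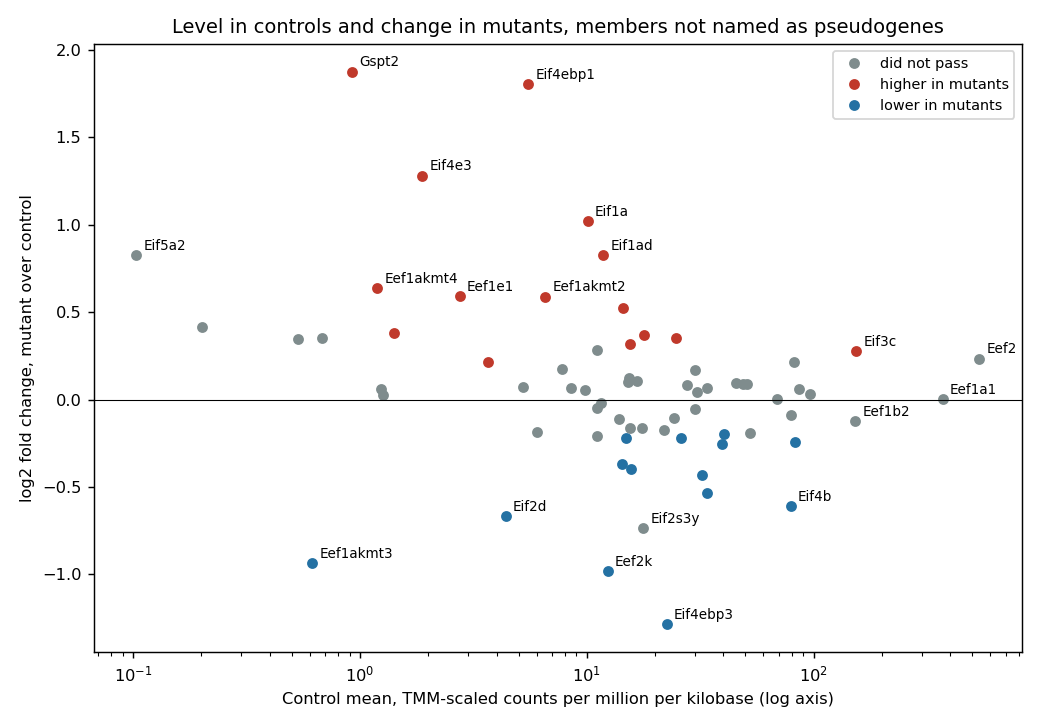
Control level per kilobase of exon (CPM per kilobase, log axis, x) and log2 fold change (mutant minus control, y) for the 70 tested members not named as pseudogenes, coloured by call. The members most abundant in controls, Eef2 and Eef1a1, did not pass, and the members that rose more than 2-fold lie at lower levels.

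Of the 6 tested genes with Eef1 names, other than methyltransferases and pseudogene rows, only Eef1e1 rose and the other 5 did not pass. Eef1a1, which delivers transfer RNAs, had 938, 846 and 979 CPM in controls and 969, 879 and 919.8 CPM in mutants (log2 fold change 0.00, SE 0.09, adjusted p = 0.983), and the ranges overlapped fully. It shares 60.6% of its 50-base stretches with other genes, so its level of 369 ± 27.3 CPM per kilobase in controls (SD, n = 3) is uncertain. Eef1e1, a scaffold of the transfer RNA synthetase complex, had 9.30, 9.498 and 8.07 CPM in controls and 14.03, 13.7 and 12.8 CPM in mutants and rose (log2 fold change 0.59, SE 0.11, adjusted p = 0.00177). The exchange factor genes Eef1b2, Eef1d and Eef1g did not pass (log2 fold changes -0.12, 0.10 and 0.10), nor did Eef1a2, the form of muscle and neurons (0.35).

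Of the 6 genes for enzymes that methylate elongation factors, 2 rose and 1 fell. Eef1akmt2 had 12.9, 10.9 and 10.9 CPM in controls and 16.6, 18.4 and 17.2 CPM in mutants and rose in every mutant (log2 fold change 0.59, SE 0.10, adjusted p = 0.00134). Eef1akmt4 had 2.14, 1.87 and 1.77 CPM in controls and 3.40, 2.601 and 3.01 CPM in mutants (log2 fold change 0.64, SE 0.20, adjusted p = 0.0269), and 30.7% of its exon length lies on another same-strand gene. Eef1akmt3 had 1.26, 2.17 and 1.61 CPM in controls and 1.082, 0.760 and 0.793 CPM in mutants and fell (log2 fold change -0.94, SE 0.30, adjusted p = 0.0263). The call of Eef1akmt4 was lost without control 2, control 3, mutant 1 or mutant 3 (0.53 to 0.64), and that of Eef1akmt3 without control 2, control 3, mutant 2 or mutant 3 (-0.98 to -0.72). Eef1akmt1, the most abundant of them per kilobase in controls, had a log2 fold change of 0.29 (adjusted p = 0.0754), and Eef2kmt and Eef1aknmt had 0.07 and 0.06 and did not pass either.

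At termination, the release factor copy Gspt2 had the largest rise of all members. Gspt2 (ENSMUSG00000071723.7, chromosome X, 94636069 to 94643244, plus strand) encodes a form of the GTPase eRF3, and had 3.14, 3.53 and 3.78 CPM in controls and 12.7, 11.8 and 13.8 CPM in mutants. Every mutant was more than 3 times the highest control, and it rose (log2 fold change 1.88, SE 0.14, adjusted p = 6.56e-06). No 50-base stretch of Gspt2 lies in another annotated gene. Its paralog Gspt1 had 145, 156 and 149 CPM in controls and 172, 149 and 155 CPM in mutants (log2 fold change 0.08, SE 0.08, adjusted p = 0.427), and Etf1, which encodes eRF1 that reads the stop codon, had 168, 175 and 165 CPM in controls and 188, 177 and 177 CPM in mutants (log2 fold change 0.09, SE 0.07, adjusted p = 0.288). Per kilobase, Gspt2 stood at 3.12%, 3.24% and 3.65% of Gspt1 in controls and at 10.6%, 11.4% and 12.8% in mutants, so Gspt1 remained the more abundant form.

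The Gspt2 transcript of 2491 bases also held 2 GGACT matches, 1 in the coding part at bases 1374 to 1378 and 1 at bases 2081 to 2085, across the last coding bases and the stop codon. They are shown because Gspt2 rose most, with GGACT in capitals.
Gspt2 coding site: gccctgctcaGGACTgactggagca
Gspt2 stop codon site: tcccagagaaGGACTaagcaatctc

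GGACT occurred in members of every call. Its median density was 1.20 per kilobase of transcript in 15 members that rose, 0.908 in 14 that fell and 1.29 in 41 that did not pass. Over all tested protein-coding genes the medians were 1.12, 1.00 and 1.05 per kilobase. Eif4ebp1 and Gspt2, whose windows are shown, had 1.00 and 0.803 per kilobase, both below the median of the members that rose. A match is a run of letters and was not measured as a methylated site.

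Of 76 tested members, 53 were found in the RefSeq promoter table, and both strands were searched. Eif4ebp1, Eif4ebp3, Eif4e3, Gspt2 and Eif1a were not among them, so the promoters of these members with large changes were not searched. CACGTG was present in 14 of them (26.4%), beside 11.1% of 11968 tested genes and 8.09% of all 27025 genes in the table. CCGGAAG was present in 18 (34.0%), beside 18.1% and 9.93%. GGGCGG, the box bound by Sp proteins, was present in 41 (77.4%), beside 64.4% and 38.2%. TATAAA was in 9.43% of the members, beside 9.87% of tested genes, and TGATGNAA, the motif of Atf4 with Cebp proteins, in 3.77% beside 2.82%. AAGATGGCG, the motif of Yy1, was in 5.66% beside 3.11%. Of all 53 members searched, 10 rose, 10 fell and 33 did not pass. Of the members with an E-box, 2 rose, 3 fell and 9 did not pass, and of those with CCGGAAG, 3 rose, 3 fell and 12 did not pass. Both splits lay near that of the 53. Both of these motifs lay in members of every kind of call. Among the members searched, TATAAA was in 5, none of which passed. TGATGNAA was in 2, of which none rose, and AAGATGGCG was in 3, of which none fell. These counts are too small to set a motif apart by call.

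Of 6 tested rows named as pseudogenes, Eef1a1-ps1 passed, with 2.82, 2.05 and 1.39 CPM in controls and 3.29, 4.56 and 5.09 CPM in mutants (log2 fold change 1.04, SE 0.28, adjusted p = 0.0116). It shares 36.5% of its 50-base stretches with another gene, so its level is uncertain. Eif4a-ps4, which shares 95.7%, passed without control 1 (log2 fold change 0.87). With the pseudogene rows left out, 15 of 70 members rose, 14 fell and 41 did not pass.

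Of the 30 calls, 7 held under all 18 alternative settings, 1 of which had a single mutant library: Eif4ebp1, Eif4ebp3, Eif4e3, Gspt2, Eif1a, Eif1ad and Eef2k. Another 11 were lost only when the null was a 1.5-fold change. These were Eif4b, Eif4a2, Eif5, Eif2d, Eif2ak1, Eif2ak3, Eif2b1, Eif2b2, Eif2b4, Eef1e1 and Eef1akmt2. The other 12 were called in fewer settings. Against the 1.5-fold null 9.21% of members passed, beside 14.8% of all genes. How many calls of all genes held in every setting was not counted, so these numbers do not set the members apart.

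Outside these factors, 67 tested genes that act on translation were listed, of which 17 rose, 18 fell and 32 did not pass (52.2% called, beside 46.3% of all genes). In the integrated stress response, the pathway downstream of eIF2 phosphorylation, 6 of 12 rose and 2 fell. Trib3, a pseudokinase target of Atf4, had 0.171, 0.208 and 0.290 CPM in controls and 8.70, 6.80 and 8.83 CPM in mutants (log2 fold change 5.17, SE 0.25, adjusted p = 5.60e-07). The controls of Trib3 lay near the floor, so the size of this rise is uncertain. Chac1, which degrades glutathione, had 0.856, 1.31 and 1.19 CPM in controls and 13.1, 12.6 and 13.3 CPM in mutants (log2 fold change 3.54, SE 0.18, adjusted p = 6.29e-07), and the transcription factor gene Atf5 had 10.7, 8.79 and 8.49 CPM in controls and 30.1, 26.8 and 34.0 CPM in mutants (log2 fold change 1.70, SE 0.12, adjusted p = 6.10e-06). Each lay higher in all mutants.

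Of 16 genes that carry mTORC1 and MAPK signals to the factors, 1 rose and 7 fell. Pdcd4, whose product blocks eIF4A, had 164, 171 and 170.0 CPM in controls and 83.0, 81.2 and 65.3 CPM in mutants (log2 fold change -1.14, SE 0.10, adjusted p = 1.53e-05). Mknk2, a kinase of eIF4E, had 131, 144 and 129.8 CPM in controls and 68.6, 78.4 and 60.1 CPM in mutants (log2 fold change -0.97, SE 0.10, adjusted p = 5.23e-05), and the ribosomal S6 kinase gene Rps6ka3 had 149, 172 and 164 CPM in controls and 101, 106 and 92.3 CPM in mutants (log2 fold change -0.70, SE 0.08, adjusted p = 1.16e-04). All mutants of these genes lay below all controls. Of 14 poly(A)- and cap-binding partners, 1 rose and 6 fell. Ncbp2, the cap-binding subunit of the nuclear complex, had 23.2, 21.8 and 23.4 CPM in controls and 35.1, 39.3 and 39.2 CPM in mutants and rose (log2 fold change 0.73, SE 0.08, adjusted p = 5.85e-05). Paip2, a repressor of the poly(A)-binding protein, had 105, 108 and 105 CPM in controls and 74.1, 78.7 and 77.9 CPM in mutants and fell (log2 fold change -0.46, SE 0.06, adjusted p = 3.18e-04), as did Ctif, with 17.9, 16.4 and 18.1 CPM in controls and 10.2, 8.96 and 6.62 CPM in mutants (log2 fold change -1.03, SE 0.15, adjusted p = 3.92e-04).

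Of 16 genes for helicases, re-initiation, recycling and rescue of stalled ribosomes, 4 rose and 3 fell. Pelo, which splits stalled ribosomes, had 7.33, 8.84 and 8.49 CPM in controls and 19.6, 16.8 and 17.4 CPM in mutants (log2 fold change 1.13, SE 0.11, adjusted p = 4.45e-05). Mcts2, a re-initiation factor gene, had 6.42, 7.12 and 6.65 CPM in controls and 12.02, 14.4 and 12.7 CPM in mutants (log2 fold change 0.95, SE 0.12, adjusted p = 1.62e-04), and Zfp598, which marks collided ribosomes, had 84.0, 76.9 and 79.7 CPM in controls and 94.7, 105 and 102 CPM in mutants (log2 fold change 0.33, SE 0.07, adjusted p = 0.00455). These 3 rose in every mutant. Of 9 genes that make hypusine on eIF5A or diphthamide on eEF2, 5 rose and none fell. The smallest p belonged to Dph3, with 42.3, 40.2 and 38.3 CPM in controls and 65.1, 66.8 and 74.8 CPM in mutants (log2 fold change 0.77, SE 0.08, adjusted p = 4.58e-05), Dph5, with 10.02, 10.9 and 13.6 CPM in controls and 25.3, 20.9 and 21.6 CPM in mutants (log2 fold change 0.97, SE 0.13, adjusted p = 2.49e-04), and Dph2, with 7.45, 7.27 and 7.58 CPM in controls and 10.6, 10.1 and 10.4 CPM in mutants (log2 fold change 0.48, SE 0.11, adjusted p = 0.00577).

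**Figure D4:**
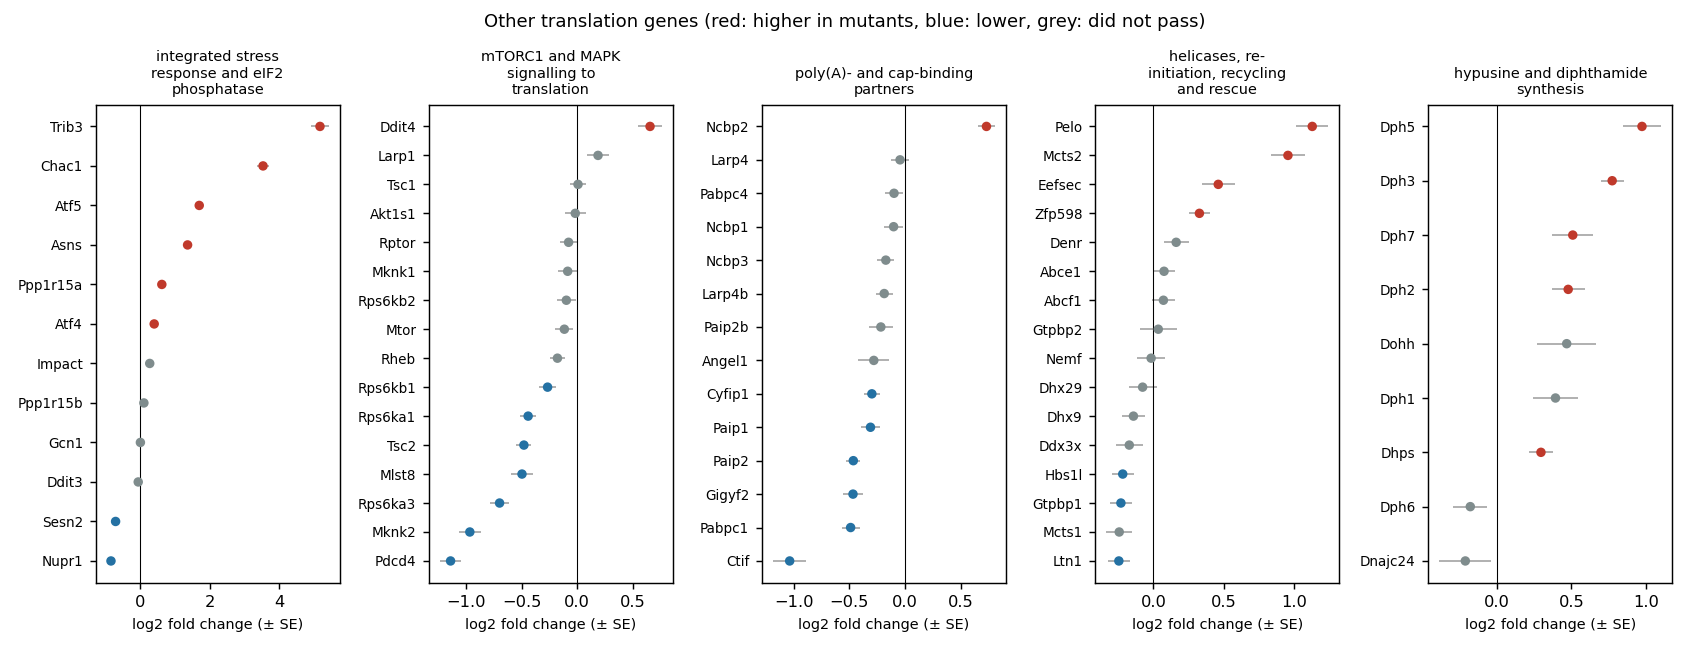
Log2 fold change (mutant minus control, x axis) of the 67 other translation genes (y axis) in 5 panels whose x scales differ, with bars of 1 standard error and colours for genes called higher, lower or not passed. Trib3 has the largest rise, at 5.17 from controls near the floor, and the hypusine and diphthamide genes hold 5 rises and no fall.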

How the data were processed

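Poly(A)-selected RNA of 6 samples was made into libraries by a strand-keeping SMARTer protocol, per the labels, and grouped by the genotype given there. The submitters' processing notes name Trim Galore 0.6.5, STAR 2.6.1d and the build GRCm38. The authors deposited raw counts per gene, made with featureCounts 1.6.4 on GENCODE vM25, per the file headers. These record paired fragments, counting by strand, and show neither multi-mapping nor multi-overlap counting switched on, so near-identical or overlapping genes lose reads.

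Counts were analysed with edgeR 4.0.16 in R 4.3.3. Genes were kept by filterByExpr (minimum count 10, minimum total 15), which left 18539 genes and 76 of 77 members, all but Eif3s6-ps2. TMM factors entered both the fit and every CPM value. Genotype was the sole term of the 2-sided quasi-likelihood F test, whose p-values received Benjamini-Hochberg adjustment over the whole tested table, with a threshold of 0.05. The SE of a log2 fold change is its size divided by the square root of F. Levels are compared between genes only after division by the exon length in the files. Within each group no 2 libraries agreed within counting noise (the lowest chi-square per gene of a pair was at least 14), so each counted as 1 sample.

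The members and the lists of other translation genes and cell type markers were chosen with earlier results of these data known. Values in every library went to members by role: at most 4 with the smallest p (not always all 4), the most abundant per kilobase in controls, and the X and Y copies of Eif2s3. Other translation genes were named by smallest p, up to 3 per list, and those that fell in the integrated stress response list were named as well. Members named for a call gained or lost without a library were chosen after their values were seen. Alternatives were 3 other scalings, TMM without ribosomal and mitochondrial RNA, 2 other filters, DESeq2 1.42.0, limma-voom (limma 3.58.1), a 1.5-fold null, a threshold of 0.01, a replicate block, and leaving out each library or mutant 1 with mutant 2 (which leaves 1 mutant library). The main fit was tested on simulated data in which 67, 67 and 66 of 18061 genes changed 1.5-, 2- and 4-fold. It recovered 50.7%, 80.6% and 97.0% of them, and 6.75% of its calls were false. Far fewer genes changed there than were called here, so these shares need not hold for these data. Shared sequence was counted over 50-base stretches of GENCODE vM21 transcripts. Promoters are from RefSeq (GRCm38.p6).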

Additional observations from a re-analysis of the deposited data

How the results depend on the processing

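Over 18 alternatives and 92 genes, 1651 log2 fold changes were recomputed. Of these, 1519 kept their side of the threshold, 107 lost a call and 25 gained one. No called value changed sign, and 38 values that were not called did. The number of lower members fell to 9 with library totals, where the members' median log2 fold change was 0.14, and to 8 at a threshold of 0.01. Against a 1.5-fold null, 5 members were higher and 2 lower, with 1720 and 1027 of all genes and 8 and 3 of the other translation genes, since that null asks for larger changes. Without mutant 1 and mutant 2, where mutant 3 is the only mutant library, the members' median was 0.017. For the results named here other than those of the 1.5-fold null and the threshold, the cause was not tested.

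Leaving out 1 library at a time gave 12 to 15 higher members and 9 to 17 lower members, with medians of 0.044 to 0.086. Of all genes, 3574 to 4335 were higher and 3448 to 4236 lower, and of the other translation genes 15 to 18 were higher and 15 to 23 lower. With no filter on low counts, 21.5% of all genes were called.

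The submitters' description of the design counts the animals in pairs, yet the sample labels do not match controls to mutants. The main fit therefore had no term for pairs. Same-numbered libraries deviated from their group means with correlations of -0.121, -0.103 and -0.146, so the numbers were not taken as pairs. These correlations cannot show whether the mice were paired in another order, and the part of such pairing in the calls was not tested. With a replicate block, 13 members were higher and 8 lower, and 21 of the 30 calls were shared. Under that block 27.6% of members and 39.9% of all genes were called.

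Members at low levels, such as Eef1akmt3 and Eif5a2, rest on few counts.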
